A study of Homo sapiens with 3 samples.

Results

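ATP-binding cassette (ABC) genes were examined in HCT116 cells, a human colorectal cancer cell line, after knockdown of PRMT1, the main enzyme that places asymmetric dimethyl marks on arginine. A gene was taken as a member when a non-control probe on the array named it ABC followed by a subfamily letter from A to G and a number, and when its brightest probe stood well above background on 1 or more of the arrays. The array named 46 such genes with 71 probes, and 30 of the 46 were members, out of 41749 gene names in all. Of the 30, 26 were above background on all 3 arrays.

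RNA came from 1 culture for each of 3 groups, all of them HCT116 cells transfected with a cationic lipid reagent. The labels call the groups PRMT1-NC, the negative control (NC here), PRMT1-KD1 and PRMT1-KD2 (KD1 and KD2 here). Each sample was hybridised to 1 Agilent 1-colour array of 60-base probes, and the 3 arrays shared 1 slide and 1 scan. There was no replicate array of any group, so no value below has a replicate check, and no difference carries a p-value. The sequences of both small interfering RNAs (siRNAs) against PRMT1 are shown because they define the treatment; the labels do not say which of them made KD1 and which made KD2, and they give neither time nor dose.
PRMT1 siRNA-1: cugaaguccaggucgauggugaaguc
PRMT1 siRNA-2: uuguagucuuuguacugcc

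Values are log2 of the background-corrected spot intensity minus the 75th percentile of the same array, so a value of 0 is the brightness of that percentile. A change is the difference of 2 such values at 1 probe. A change past 1.5-fold (0.585 on the log2 scale) is called lower or higher, which is the fold of the study's methods without its p-value. Where a probe was below background on 1 of the arrays compared, the change is a bound, measured against the lowest signal well above background on that array. The targeted gene was low in both knockdowns. PRMT1 stood at 6.03 in NC, 2.75 in KD1 and 1.48 in KD2, which is 10.3% of the NC signal in KD1 and 4.26% in KD2. The PRMT1 probe aligns to hg19 chr19:50188248-50189362.

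The arrays were alike in detection, repeatability of spots and saturation, but not in non-uniform spots. KD1 had 141 of these, NC had 6 and KD2 had 5, and such spots were left out. Between 40.7% and 42.3% of probes were well above background, the median SD between repeated spots was 0.041 to 0.053 log2 units, and no non-control spot was saturated. The spread between the knockdowns (robust SD of KD1 minus KD2 over 17054 genes above background on all arrays) was 0.38 log2 units, and it mixes array error with real differences between the knockdowns. Of 10 epithelial and intestinal markers, 9 were above background on all arrays and VIL1 was on none. Of 9 markers of blood cells, fibroblasts, endothelium and hepatocytes, 5 (among them CD3E, COL1A2, DCN and PECAM1) were above background on no array, COL1A1, CDH5 and ALB were on all, and PTPRC was on KD2 only; their part in the results was not tested.

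ABC proteins bind and hydrolyse ATP through a conserved pair of nucleotide-binding domains. In most of them this powers the movement of a substrate across a membrane. Subfamily A moves lipids. Subfamily B holds the drug exporter P-glycoprotein beside transporters of mitochondria and lysosomes that work as dimers, and subfamily C the multidrug resistance proteins, which export organic anions and conjugates. Subfamily D serves peroxisomes, members of subfamilies E and F have no membrane-spanning part and act on ribosomes and translation, and subfamily G exports sterols and drugs. In the intestinal epithelium ABC exporters stand on both faces of the cell, and those on the apical face limit the uptake of drugs.

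The members covered the subfamilies unevenly. They were 7 of 12 named genes in subfamily A, 7 of 9 in B, 8 of 12 in C, 3 of 4 in D, 1 of 1 in E, 3 of 3 in F and 1 of 5 in G. The 16 genes above background on no array were ABCA1, ABCA6, ABCA8, ABCA12, ABCA13, ABCB4, ABCB11, ABCC8, ABCC9, ABCC11, ABCC12, ABCD2, ABCG1, ABCG2, ABCG5 and ABCG8. Among them are the sterol exporters ABCA1, ABCG1, ABCG5 and ABCG8, the drug exporter ABCG2, the bile salt export pump ABCB11, and the sulfonylurea receptors ABCC8 and ABCC9. A probe below background does not show that a gene is silent. The dimmest members were above background on 1 array: ABCB5 was measured at -2.60 and ABCA4 at -2.46, both in NC only, and ABCC13 at -1.74 in KD2 only. Just outside the threshold, ABCA12 had -2.69 in NC, -3.37 in KD1 and -2.78 in KD2, and ABCG1 had -2.84, -3.95 and -3.25.

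Few members passed the fold in KD1. Of 29 measured, 2 were lower (ABCA7 and ABCA10) and 0 were higher, which is 6.90% of the members where 26.4% of all 19231 genes measured passed the fold in either direction (14.0% lower, 12.4% higher). In KD2, 6 of 30 were lower (among them ABCA7, ABCA10, ABCC6, ABCF1 and ABCF2) and 3 were higher (ABCA9, ABCB1 and ABCC13). That is 30.0% of the members, where 20.2% of 19421 genes passed (10.6% lower, 9.68% higher). The median change of the members was -0.17 in KD1 and -0.18 in KD2, beside -0.07 and -0.05 over all genes measured. Over the 26 members above background on all arrays it was -0.04 in KD1 and -0.14 in KD2. The split moved with the scaling. Scaled to 8 E1A spike-in probes, which shifts the median of all genes to 0.57 in KD1 and 0.22 in KD2, 0 members were lower and 13 higher in KD1, and 2 lower and 6 higher in KD2; relative to the median of all genes the members' medians were the same as above. Unscaled, 1 was lower and 6 higher in KD1 and 3 lower and 4 higher in KD2. With spike-in scaling 44.8% of the members passed the fold in KD1 and 26.7% in KD2, where 50.2% and 25.2% of all genes did. Without scaling the shares were 24.1% and 23.3% of the members, beside 36.1% and 20.8% of all genes. Median scaling gave 2 lower and 1 higher in KD1 and 7 lower and 2 higher in KD2, and in KD2 quantile normalization gave 4 lower and 3 higher and a percentile over detected probes 3 lower and 3 higher. Directions below are relative to the bulk of genes on each array. A member that was above background on 1 array only could be measured only through the array where it was high, so these counts describe the members and support nothing further about the family.

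Both knockdowns were set against the same NC array, so a high or low NC spot moves both changes of a gene together. The counts for both stand side by side. In these, 2 members (ABCA7 and ABCA10) were lower in both, where 5.62% of 18602 genes measured in both were, 0 members were higher in both (4.87% of all genes), and 0 passed the fold in opposite directions (0.253%). Between KD1 and KD2 directly, which does not use NC, 7 of 28 members passed the fold (3 lower and 4 higher in KD1), and 18.6% of all genes did (9.66% lower, 8.94% higher). In bulk RNA, fewer cells that carry a transcript and less of it per cell cannot be told apart.

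**Figure D1:**
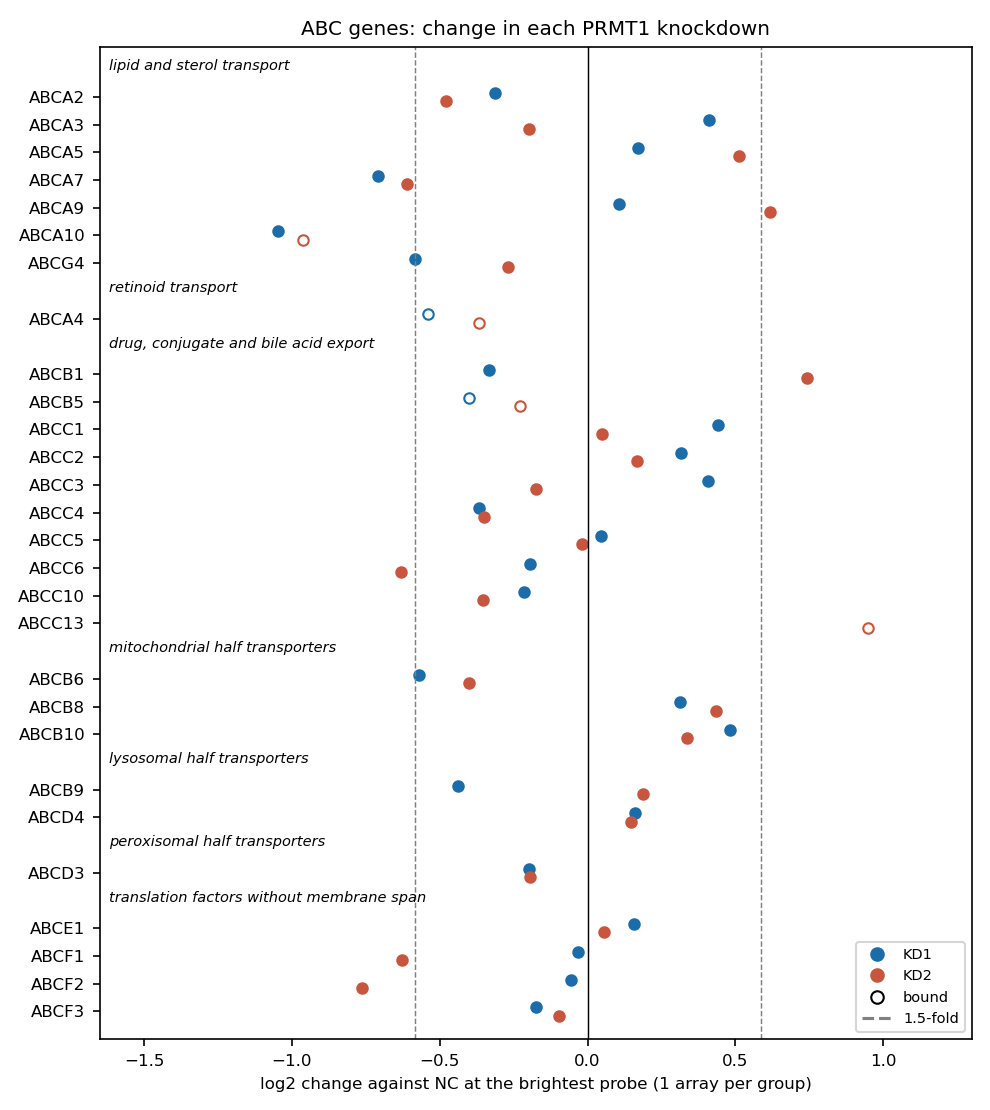
The log2 change against NC of 28 of the 30 members at the brightest probe is plotted by role, in KD1 (blue) and KD2 (red), with bounds as open circles and 1.5-fold as dashed lines; there was 1 array per group and there are no error bars. Of those drawn, only ABCA7 and ABCA10 lie left of the lower line in both knockdowns, and none lies right of the upper line in KD1.

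**Figure D2:**
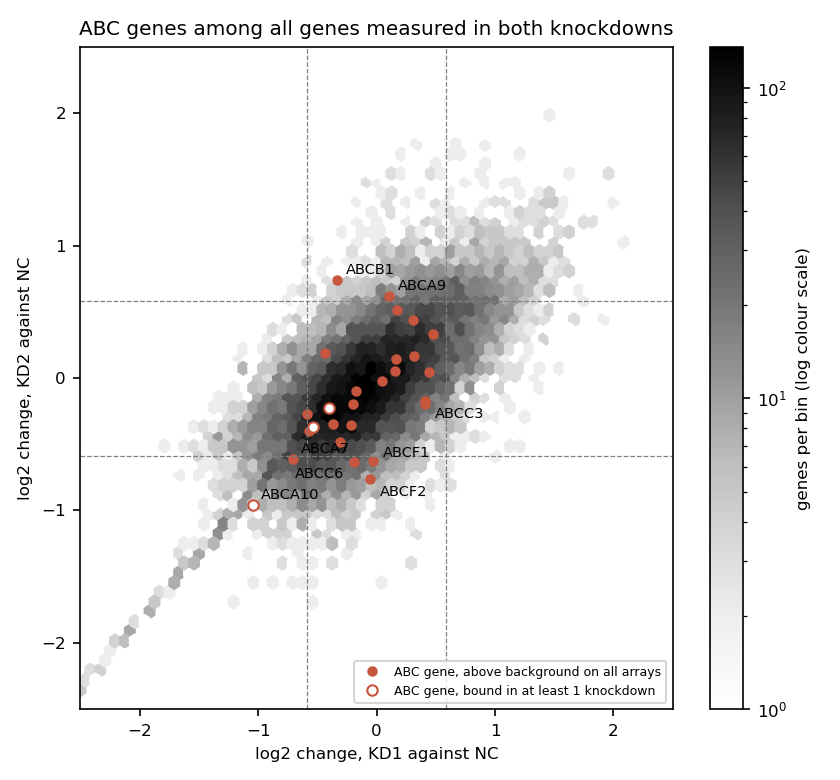
The change in KD2 (vertical, log2) is plotted against the change in KD1 (horizontal, log2) for 27 members (red) over the density of all 18602 genes measured in both knockdowns (grey, log colour scale), of which 54 lie outside the range drawn. The grey streak at the lower left holds genes above background in NC only, whose bounds lie on 1 line; ABCB1 is the highest of the members drawn and ABCA10 the lowest.

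ABCC3 (MRP3), the exporter of glucuronides and bile acids on the basolateral face of enterocytes and hepatocytes, gave different answers at its 2 probes. It belongs to a set of genes that the study chose partly on these arrays, so its values are a description. Both probes lie in the gene on the plus strand of chromosome 17 (hg19), with starts 23.5 kb apart. The brighter one, A_23_P207507 at chr17:48768701-48768760, is named for transcript NM_003786, and the other, A_33_P3298024 at chr17:48745220-48745279, for NM_001144070, and the latter is called the internal probe here. The first 30 of 60 bases of the brighter probe and all 60 of the internal probe are shown because the result depends on which of them is read.
ABCC3 A_23_P207507: gtaactgtgctgaatgctttagatgaggaa
ABCC3 A_33_P3298024: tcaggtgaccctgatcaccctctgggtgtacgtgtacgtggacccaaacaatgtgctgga

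At the brighter ABCC3 probe the signal was 2.36 in NC, 2.76 in KD1 and 2.18 in KD2. KD1 was the highest array and KD2 the lowest, and the changes of 0.41 and -0.17 did not pass the fold. At the internal probe the signal was 1.91 in NC, 0.97 in KD1 and 0.87 in KD2. Here both knockdowns lay below NC, by changes of -0.94 and -1.04, and both passed the fold. The error that the extraction software assigned to each of these 6 spot values was 0.14 to 0.15 log2 units, which covers the spot and not the culture. The internal minus the brighter change was -1.35 in KD1 and -0.87 in KD2. Among 3861 genes with more than 1 probe above background on all arrays, 95.5% in KD1 and 93.3% in KD2 had a smaller range between probes than ABCC3. The internal probe stayed below 0 under all 13 alternative settings in which it was computed, with extremes of -0.99 and -0.31 in KD1 and of -1.20 and -0.78 in KD2, and passed the fold in 11 of them in KD1 and all 13 in KD2. The mean of both probes was -0.27 in KD1 and -0.61 in KD2, so the sign in KD1 turned with the choice of probe. The array cannot tell whether the probes read different transcripts, and the cause of the gap was not tested.

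**Figure D3:**
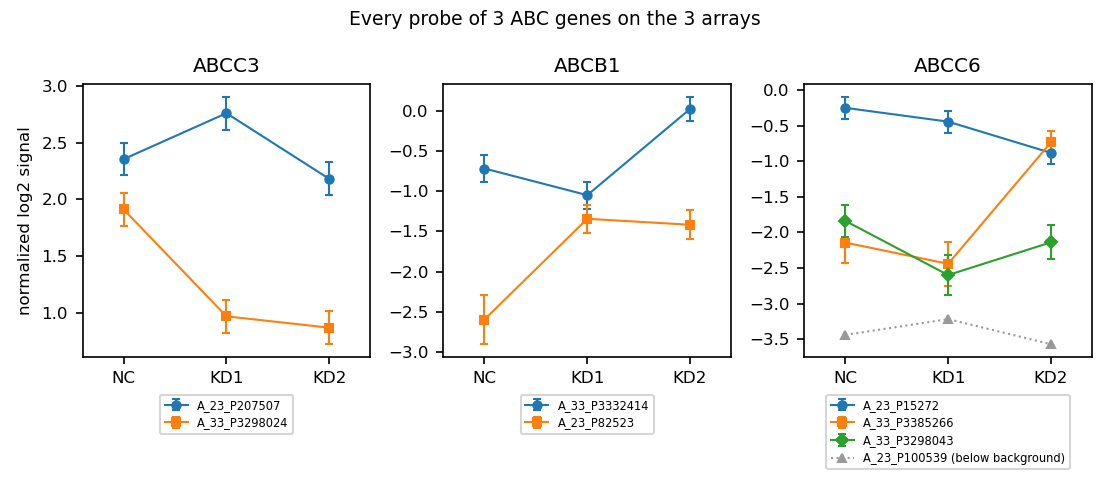
The normalized log2 signal on the 3 arrays is plotted for every probe of ABCC3, ABCB1 and ABCC6, 1 line per probe, with the error that the extraction software gave each spot as bars; the vertical axes differ between panels and a probe's height is not comparable with another's. The ABCC3 internal probe drops from 1.91 to 0.97 and 0.87 while the brighter probe stays between 2.18 and 2.76, and 1 ABCC6 probe rises to -0.74 in KD2 alone.

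**Figure D4:**
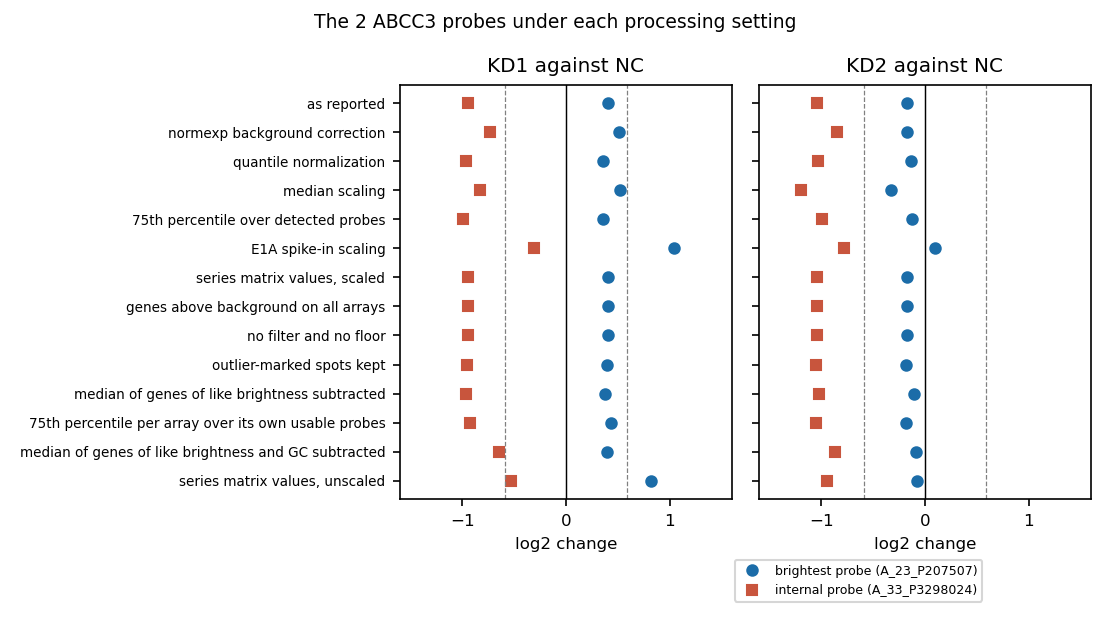
The log2 change against NC of the brighter (blue circles) and the internal (red squares) ABCC3 probe is plotted for each processing setting, 1 per line, in KD1 (left) and KD2 (right), with 1.5-fold as dashed lines. The internal probe is below 0 in every line of both panels and lies left of the brighter probe throughout.

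Of the other exporters of drugs and conjugates, ABCC1, ABCC2, ABCC4, ABCC5 and ABCC10 did not pass the fold at their brightest probes. ABCC1 (MRP1), which exports glutathione conjugates and leukotriene C4, had 1.15 in NC, 1.59 in KD1 and 1.19 in KD2, a change of 0.44 and 0.05. ABCC2 (MRP2), the apical exporter of conjugated bilirubin, had 2.18, 2.50 and 2.35. ABCC4, an exporter of cyclic nucleotides and prostanoids, had -0.47 in NC, -0.84 in KD1 and -0.82 in KD2, changes of -0.37 and -0.35, with both knockdowns below NC but short of the fold. ABCC5, also an exporter of cyclic nucleotides, changed by 0.05 and -0.02 at its brightest probe, and its other 2 probes gave 0.28 and 0.19 in KD1 and 0.38 and 0.64 in KD2. ABCC10 (MRP7) changed by -0.22 and -0.35 at its brightest probe, and by -0.76 and -0.54 in KD1 and -0.21 and -0.06 in KD2 at the other 2. For both genes a call therefore depends on the probe: 1 of 3 ABCC5 probes passed the fold in KD2, and 1 of 3 ABCC10 probes did so in KD1.

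ABCB1 (P-glycoprotein), the broad exporter of hydrophobic drugs, differed most between the knockdowns at the brightest probe among members above background on all arrays. At its brightest probe, A_33_P3332414 at hg19 chr7:87229435-87229494 on the minus strand, the signal was -0.72 in NC, -1.05 in KD1 and 0.03 in KD2. KD2 was the highest array and rose by 0.74, KD1 had a change of -0.33, and KD1 minus KD2 was -1.07, against the robust SD of 0.38 between the knockdowns. Its second probe, A_23_P82523, lies 94.1 kb away by start and aligns to chr7:87135313-87138603, a span of 3291 bases for 60 bases of probe, so it crosses a splice junction. There the signal was -2.60 in NC, -1.34 in KD1 and -1.42 in KD2, with changes of 1.25 and 1.18. KD1 minus KD2 was 0.07 at the second probe, so the difference between the knockdowns was seen at the brightest probe only. Both knockdowns were above NC at this probe and above it in all 13 settings computed. In KD2 each of the probes passed the fold upward, and in KD1 they were apart by 1.59 on the log2 scale. With normexp background correction no ABCB1 call was left, since the brightest probe had 0.45 in KD2 and the second 0.39 in KD1 and 0.40 in KD2. The NC value of the second probe was dim and had a software error of 0.31 log2 units. The second probe is shown whole because it reads a spliced transcript, and the brighter one by its first 30 bases.
ABCB1 A_33_P3332414: cttgaaggggaccgcaatggaggagcaaag
ABCB1 A_23_P82523: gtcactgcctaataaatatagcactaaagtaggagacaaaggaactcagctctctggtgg

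ABCC6 (MRP6), which supports release of ATP from hepatocytes and is mutated in pseudoxanthoma elasticum, had 4 probes, of which 3 were above background on all arrays. The brightest, A_23_P15272, had -0.25 in NC, -0.45 in KD1 and -0.88 in KD2 and fell by 0.63 in KD2. A second probe, A_33_P3385266, had -2.14 in NC, -2.44 in KD1 and -0.74 in KD2 and rose by 1.41 in KD2. The 2 probes lie on chromosome 16 of hg19 with a gap of 12 bases between them (16315075-16315134 and 16315147-16315206, minus strand), and they passed the fold in opposite directions in KD2. The third, A_33_P3298043, had a KD1 change of -0.76 and a KD2 change of -0.30. The mean over probes in KD2 was 0.16, which turned the sign of the brightest probe, so no direction is given for ABCC6. The genome also holds partial ABCC6 pseudogene copies, and whether these probes read them was not tested. The first 30 of 60 bases of the 2 neighbouring probes are shown because they lie side by side and moved apart.
ABCC6 A_23_P15272: gttcccccactggctgtattataggacaat
ABCC6 A_33_P3385266: tcttggatacacaaggtaattttagggcca

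The remaining members of this role were dim. ABCB5 was above background in NC only, so it was at least 1.32-fold lower in KD1 and at least 1.17-fold lower in KD2. These bounds do not show whether the change passed the fold, and with no filter and no floor ABCB5 was lower in both knockdowns. ABCC13, which RefSeq lists as a transcribed pseudogene and which was grouped here by its name, was above background in KD2 only and was at least 1.93-fold higher there than in NC. It was not measured in KD1.

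Disagreement between probes was not confined to these genes. Of 8 members with more than 1 probe above background on all arrays, 3 had probes more than 1.5-fold apart in KD1 (ABCB1, ABCB8 and ABCC3) and 3 in KD2 (ABCC3, ABCC5 and ABCC6). Over all 3861 genes of this kind the shares were 32.9% in KD1 and 17.8% in KD2. The median range between probes was wider for the 8 members, at 0.56 in KD1 and 0.53 in KD2, than over all 3861, at 0.40 and 0.26. A range grows with the number of probes, which was not matched, and ABCC5, ABCC6 and ABCC10 had 3 such probes each.

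Among the lipid and sterol transporters, ABCA7 and ABCA10 were lower in both knockdowns and ABCA9 was higher in KD2. ABCA7, which moves phospholipids to the outer leaflet and takes part in phagocytosis, had 3.81 in NC, 3.11 in KD1 and 3.20 in KD2. Both knockdowns lay below NC, with changes of -0.71 and -0.61, which are 1.63-fold and 1.53-fold and so near the threshold. The change kept its sign under all 14 alternative settings and passed the fold in 11 of them in KD1 and 7 in KD2, with the smallest values of -0.08 in KD1 and -0.34 in KD2 under spike-in scaling. Less bright probes of ABCC3 and ABCB1 also passed the fold in the same direction in both knockdowns. At brightest probes, ABCA7 had the only call that both knockdowns share among members above background on all arrays. For that reason the first 30 of 60 bases of its single probe are shown, which lies at hg19 chr19:1065272-1065331 on the plus strand.
ABCA7 A_33_P3374623: ttcttgtacttctccaaggaccaggggaag

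ABCA10, a member of the ABCA6-like gene cluster on chromosome 17 whose substrates are little known, was dim. It had -1.86 in NC and -2.91 in KD1 and was not well above background in KD2. That is 2.06-fold lower in KD1 and at least 1.95-fold lower in KD2, but with normexp background correction neither call held, with changes of -0.50 and -0.48. The KD1 spot had a software error of 0.31 log2 units, so it lies close to the background.

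ABCA9, from the same cluster, was bright, with 6.77 in NC, 6.87 in KD1 and 7.38 in KD2. KD2 was the highest array, with a change of 0.62, and KD1 was near NC, with 0.11. ABCA9 had 1 probe, which shares a run of 18 bases with a probe of lnc-TMEM105-2. Whether the ABCA9 probe also reads other transcripts was not tested.

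Of the other lipid transporters, ABCA2, ABCA3, ABCA5 and ABCG4 did not pass the fold against NC. ABCA2, which handles sterols and myelin lipids in lysosomes, changed by -0.31 in KD1 and -0.48 in KD2. ABCA3, which loads phospholipid into lamellar bodies, had 1.13, 1.55 and 0.94 in NC, KD1 and KD2, and KD1 minus KD2 was 0.61, past the fold. ABCA5 changed by 0.17 and 0.51. The sterol exporter ABCG4 had 0.24 in NC, -0.35 in KD1 and -0.03 in KD2, so that its change of -0.58 in KD1 lay just short of the fold. ABCA4, the retinoid transporter of photoreceptors, was above background in NC only and was at least 1.45-fold lower in KD1 and at least 1.29-fold lower in KD2, bounds that leave the call unsettled, and with no filter and no floor it was lower in both.

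Among the mitochondrial transporters, ABCB6, ABCB8 and ABCB10 did not pass the fold. ABCB6, a porphyrin transporter, had 2.20, 1.63 and 1.80 in NC, KD1 and KD2, with changes of -0.57 and -0.40. ABCB8 changed by 0.31 and 0.44 at its brightest probe and by -0.45 and -0.09 at its second. ABCB10, which takes part in haem synthesis, changed by 0.48 and 0.34. Of 15 partners in mitochondrial iron and iron-sulfur handling, 0 were lower and 1 higher in KD1, and 2 lower and 0 higher in KD2, with medians of 0.05 and -0.20, so no partner was called in both. The share past the fold was 6.67% in KD1 and 13.3% in KD2, beside 26.4% and 20.2% of all genes.

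No lysosomal or peroxisomal transporter passed the fold against NC. ABCB9, a lysosomal peptide transporter, had -1.26 in NC, -1.69 in KD1 and -1.07 in KD2, and KD1 minus KD2 was -0.63, which is past the fold. ABCD4, which takes part in the release of cobalamin from lysosomes, changed by 0.16 and 0.15. ABCD3, which imports branched-chain and dicarboxylic acyl-CoA into peroxisomes, changed by -0.20 and -0.19. The second ABCD3 probe gave 0.35 and 0.33, so its direction depended on the probe. Of 18 peroxisomal partner genes, 2 were lower and 1 higher in KD1, and 4 lower and 0 higher in KD2. That is 16.7% in KD1 and 22.2% in KD2, beside 26.4% and 20.2% of all genes.

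The translation factors without a membrane span were bright, and ABCF1 and ABCF2 were lower in KD2 while ABCE1 and ABCF3 were called in neither knockdown. ABCE1, which splits ribosomes after termination, had 4.22 in NC, 4.38 in KD1 and 4.28 in KD2. ABCF1, which binds the initiation factor eIF2, had 4.94, 4.90 and 4.31, and ABCF2 had 3.87, 3.81 and 3.10. For both, NC and KD1 lay close together and KD2 stood below them, with KD2 changes of -0.63 and -0.76 beside KD1 changes of -0.03 and -0.06. ABCF3, the relative of the yeast factor Gcn20, had 4.99, 4.82 and 4.89. In KD2 the fall of ABCF1 passed the fold in 8 of 14 settings and that of ABCF2 in 13, and both kept their sign in all 14; the KD1 changes of both turned sign among the settings. KD1 minus KD2 was 0.59 for ABCF1 and 0.71 for ABCF2. Of 16 other genes of ribosome recycling and initiation, 0 were lower and 1 higher in KD1, and 0 lower and 2 higher in KD2. That is 6.25% in KD1 and 12.5% in KD2, beside 26.4% and 20.2% of all genes. The initiation factor EIF5 was higher in both, with changes of 0.99 and 1.12.

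Genes that act with ABC exporters were taken from lists of regulators, conjugating enzymes and uptake carriers. Of 20 nuclear receptors and stress regulators measured, 0 were lower and 3 higher in KD1, and 1 lower and 5 higher in KD2, with medians of -0.001 and 0.22. Those higher in both included the bile acid receptor NR1H4 (FXR), with -1.59 in NC, -0.18 in KD1 and 0.18 in KD2, and the small Maf protein MAFK, with changes of 0.67 and 0.77. The share of the 20 regulators past the fold was below the 26.4% of all genes in KD1 and above the 20.2% in KD2. The pregnane X receptor NR1I2, the constitutive androstane receptor NR1I3, HNF4A and the antioxidant regulator NFE2L2 were above background on no array, which does not show that they are silent.

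Of the NRF2 targets, 2 were lower and 4 higher of 18 measured in KD1 (33.3%), and 4 lower and 1 higher of 17 in KD2 (29.4%). Over all genes the shares were 26.4% and 20.2%. Malic enzyme ME1 was higher in both (0.97 and 0.80). Of the conjugating enzymes that make substrates for the C subfamily, 2 were lower and 1 higher of 12 in KD1, and 4 lower and 0 higher of 11 in KD2. GSTK1 was lower in both (-0.61 and -0.62). It missed the fold in KD1 under median scaling (-0.50) and in KD2 with the percentile over detected probes (-0.57). Under spike-in scaling (0.02 and -0.35) and unscaled (-0.20 and -0.52) it missed the fold in both. The share of the conjugating enzymes past the fold, 25.0% in KD1 and 36.4% in KD2, stands beside 26.4% and 20.2% over all genes. Of the uptake carriers, 2 were lower and 1 higher of 8 in KD1 (37.5%), and 0 lower and 2 higher of 7 in KD2 (28.6%), and 0 passed the fold the same way in both. Among 11 partners of sterol export, 1 was lower and 2 higher in each knockdown (27.3% in each). The LXR target MYLIP was higher in both (0.93 and 1.07). The apolipoprotein APOA1 was lower in both (-0.78 and -0.60), but missed the fold in KD2 with the percentile over detected probes (-0.55). Under spike-in scaling (-0.15 and -0.33) and unscaled (-0.37 and -0.50) APOA1 missed the fold in both. The 2 partners of the sulfonylurea receptors were above background on no array, as were the receptors ABCC8 and ABCC9.

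**Figure D5:**
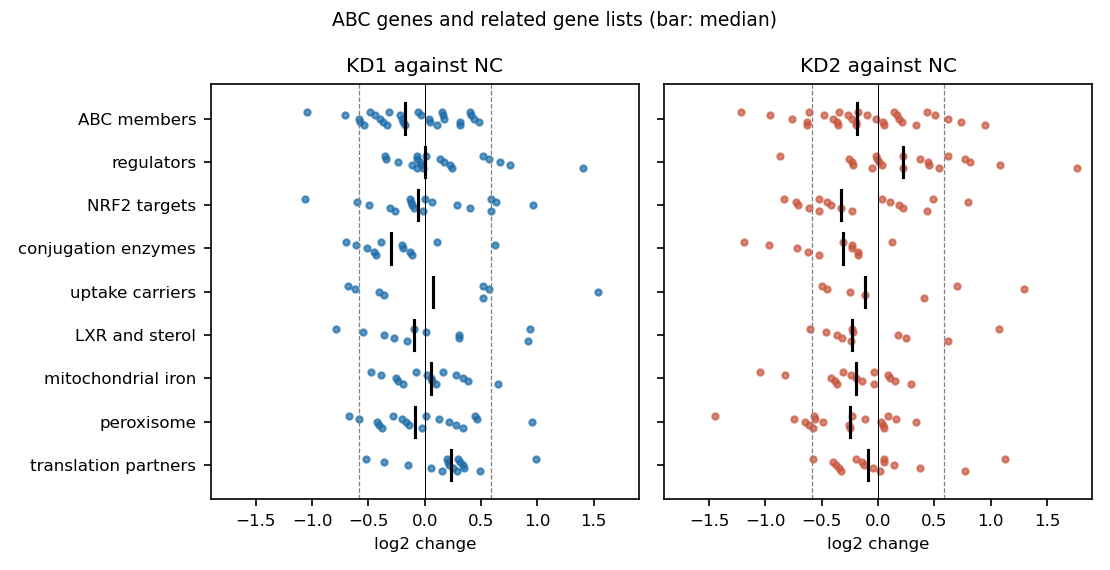
The log2 change against NC of each measured gene is plotted for the ABC members and 8 related lists, 1 point per gene with the list median as a black bar, in KD1 (left) and KD2 (right), with 1.5-fold as dashed lines. The medians lie between -0.33 and 0.23 in all lists, and the ABC members, with medians of -0.17 and -0.18, lie within the range of the other lists.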

How the data were processed

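The authors deposited the scanner output of 3 arrays, in which Agilent Feature Extraction 10.7.1.1 gives a background-corrected intensity per spot that is not scaled between arrays. A value table, also deposited, gives each probe's mean intensity, again unscaled and linear (within 1% for 99.9% or more of probes; medians 7.91, 9.74 and 9.43 for NC, KD1 and KD2). Positions are hg19, as in the files. Control spots and spots marked as outliers were left out (130 probes). Replicate spots were averaged as log2 values, and the 75th percentile over probes usable on all arrays was subtracted. A gene was read at its brightest probe. The members and gene lists were chosen with earlier results of these data known. Genes were named when past the fold in a knockdown, lowest or highest in a subfamily, among the 5 largest KD1 minus KD2 differences, or with probes that disagree; for related lists, when called the same way in both knockdowns. The remaining members, TAP1, TAP2, CFTR, the markers and the receptors not above background were named outside that rule, after their values were seen, to complete the family. The count of genes past the fold was tested on simulated data. The alternatives were normexp (offset 50) in limma 3.58.1, quantile normalization, other scalings and filters, a fold of 2 and the mean over probes. Brightness and GC subtraction, each array's own percentile and the unscaled matrix were added after seeing the data. RefSeq GRCh38.p14 served for gene types only. SMARCA4 knockdowns and further controls were not analysed here, and some genes that enter the counts are not reported here by name. Calculations ran in R 4.3.3 and Python 3.11.15 (pandas 2.3.3, numpy 2.4.6, matplotlib 3.10.9). The number of arrays limits the precision.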

Additional observations from a re-analysis of the deposited data

How the results depend on the processing

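No paired analysis was possible because each group had 1 array, and for the same reason no array could be left out. Given as lower in KD1, higher in KD1, lower in KD2, higher in KD2 and lower in both, the counts of 2, 0, 6, 3 and 2 members became 1, 0, 3, 1 and 0 with normexp background correction, 5, 0, 3, 3 and 1 with the percentile over detected probes, 0, 13, 2, 6 and 0 with spike-in scaling, and 1, 6, 3, 4 and 1 with the unscaled matrix. They became 8, 1, 8, 3 and 4 with no filter and no floor, 1, 0, 5, 2 and 1 with genes above background on all arrays, and 1, 0, 1, 0 and 0 at a fold of 2. Median scaling gave 1 higher in KD1, and subtracting the median of genes of like brightness and GC gave 1 higher in KD1. Lower in both was 1 under quantile normalization and under brightness subtraction with or without GC. Higher in both was 4 under spike-in scaling (ABCA5, ABCA9, ABCB8 and ABCB10). The median of the members minus that of all genes, -0.11 in KD1 and -0.14 in KD2, became 0.0041 in KD1 with normexp, 0.0221 in KD1 with genes above background on all arrays, 0.0168 and -0.0147 with no filter, and -0.0067 and 0.0138 with the mean over probes. ABCC3 at its brightest probe in KD1 was 1.04 with spike-in scaling and 0.82 unscaled, and the mean over its probes was -0.27 in KD1 and -0.61 in KD2. ABCC6 in KD2 turned to 0.16 with the mean over probes. The mean over probes differs because the probes do; for the filters, the fold of 2 and the percentile the change follows from how each is built, and otherwise the cause was not tested. The internal ABCC3 probe in KD2 passed the fold in all settings computed. Probes near the background, such as those of ABCA10 and the second ABCB1 probe, limit what can be read: with normexp their changes were -0.50 and 0.39 in KD1, and -0.48 and 0.40 in KD2.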

Other observations

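A few ABC genes carry names outside the A to G pattern. TAP1 and TAP2, which load peptides for antigen presentation, had changes of 0.59 and 0.56 in KD1 and 0.19 and -0.16 in KD2, so TAP1 passed the fold in KD1 only. KD1 was the highest of the 3 arrays for both: TAP1 had 4.41 in NC, 4.99 in KD1 and 4.60 in KD2, and TAP2 had 2.43, 2.99 and 2.27. CFTR, the chloride channel of the C subfamily, was above background in KD2 only, at -1.58, where its change against NC was at least 1.11 on the log2 scale.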
